A study of Mus musculus with 19 samples.

Results

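The cytosolic ribosomal protein genes encode the proteins of the ribosome that translates nuclear mRNAs. They were taken from the RNA-seq count table by name: Rpl or Rps followed by a digit, with Rplp0, Rplp1, Rplp2 and Rpsa, and without pseudogene rows ending in -ps and the Rps6k kinases. This gave 86 of the 26621 genes in the table: 31 genes of the small (40S) subunit, 43 of the large (60S) subunit, the 3 stalk genes Rplp0, Rplp1 and Rplp2, 8 paralogues, and Rps19bp1, which matches by name but encodes an Rps19-binding protein and not a ribosomal protein. The samples were neural progenitor cells (NPCs), the dividing cells that give rise to neurons and glia, taken from the cerebral cortex of mice at embryonic day 17.5. They were grown on plates coated with Matrigel, in medium with the growth factors bFGF and EGF. They carried a conditional knockout of Mettl8 (cKO) or were wild type (WT). The sources used here do not give the promoter or cell type that drives the deletion, the part of Mettl8 deleted, the strain, or whether animals were pooled. RNA-seq came from 6 cKO and 6 WT libraries, and cleavage sequencing for 3-methylcytidine (HAC-seq) from 3 cKO and 4 WT libraries. The library names divide the RNA-seq libraries into 2 sets with both genotypes in each: set 2 consists of cKO 3 to 6 with WT 4 to 6, and set 1 of cKO 1 and 2 with WT 1 to 3, by replicate number. The labels do not say what the sets stand for.

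Each ribosome holds a single copy of most of these proteins, so their synthesis is kept in balance, and proteins left without a ribosome are degraded. Their mRNAs belong to the 5′ TOP class, which starts with a C followed by an unbroken run of pyrimidines and is translated when mTORC1 signalling is active. Growing progenitors spend much of their transcription on ribosomes, and mutations in single ribosomal protein genes affect brain size and blood formation in mouse and human. Mettl8 acts elsewhere: it is a mitochondrial enzyme that makes 3-methylcytidine in mitochondrial tRNA, and mitochondria use a separate set of ribosomal proteins.

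Total counts per RNA-seq library ran from 11830839 to 18863781. All 7 neural progenitor markers (Nes, Sox2, Pax6, Vim, Fabp7, Hes1 and Sox9) were measured. So were all 7 astrocyte markers, all 7 oligodendrocyte lineage markers and 8 of 9 neuron markers, with levels given below. At C15317 of mt-Tt, the mitochondrial tRNA-Thr gene, HAC-seq cleavage was 1.70% to 2.51% in the 3 cKO libraries and 93.7% to 94.7% in the 4 WT libraries. Counts over the whole Mettl8 gene ran from 59.3 to 80.9 CPM in the 6 cKO libraries and from 35.9 to 58.6 CPM in the 6 WT libraries. All cKO libraries thus lay above all WT libraries, as in 0.0382% of all genes tested. Since the deleted part is not known, these counts do not check the RNA-seq labels. CPM here are counts relative to library size, scaled by the TMM method, which sets libraries on a common scale. Nothing in the labels says whether replicates came from different cultures or animals, and the spread that the p-values rest on may be technical. RNA was pooled over cells, so fewer cells of a type and less RNA per cell cannot be told apart.

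The letters at the transcription starts are shown first, because the pyrimidine run is what these genes are known to share. RefSeq (GRCm38.p6) gave a promoter for 65 of the 86 genes, with 77 starts. The genes shown are named in the results below: Rpl6, Rpl13a, Rps25 and Rpl22l1 differed between library sets, Rpl36al and Rpl7l1 did so without a run, Rps21 had the smallest p for genotype, and Rps27 and Rps27l are paralogues. Each window covers 20 bases before the annotated start and 10 from it, on the strand of the gene, and the capitals mark the longest C followed by at least 5 more C or T.
Rpl6, chr5:121204481-121204510 (+): gatcttggtcaCCTCCCgtcattgcttata
Rpl13a, chr7:45128736-45128765 (-): gataagaaaccctgcgacaagaCCTCCTCC
Rps25, chr9:44407694-44407723 (+): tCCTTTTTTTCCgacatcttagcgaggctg
Rpl22l1, chr3:28805488-28805517 (+): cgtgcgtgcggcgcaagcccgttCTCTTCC
Rpl36al, chr12:69184058-69184087 (-): gttcgcattcccgtcgctcaggttcagttc
Rpl7l1, chr17:46782647-46782676 (-): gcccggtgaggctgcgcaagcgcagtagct
Rps21, chr2:180257359-180257388 (+): gcacttaccgaggacccgCCCTCCTgccca
Rps27, chr3:90213639-90213668 (-): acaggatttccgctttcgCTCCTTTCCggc
Rps27l, chr9:66946066-66946095 (+): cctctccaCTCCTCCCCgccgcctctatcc

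Such a run lay in 39 of the 77 windows (50.6%), from 38 genes, against 23.3% of the 32851 starts of all genes. A run anywhere in the window counted, so it need not begin at the annotated start as the run of a TOP mRNA does. The run was 11 bases long at Rps25 and 6 at Rpl6, and both ended before the annotated start. No run was found in these windows of Rpl36al and Rpl7l1. Rps21 and Rps27l each have another annotated start, not shown, whose window holds no run. The letters CCGGAAG, the core bound by ETS factors, were searched on both strands over 300 bases (250 before the start and 50 from it), and their overlap with the run was not examined. They lay at 27 of the 77 starts (35.1%), against 8.86% of all starts. An annotated start can differ from the start used in these cells, and a match is a description of letters.

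The 86 genes took 0.930% to 1.28% of all counts (mean 1.10% ± 0.118, SD, n = 6) in cKO libraries and 0.996% to 1.26% (mean 1.11% ± 0.0999, SD, n = 6) in WT libraries. The ranges overlap almost completely. These are shares of counted reads: many members have few counts, and counts of members with pseudogene copies are uncertain, as described below. Within set 2 the mean share was 1.16% ± 0.0925 in 4 cKO libraries and 1.18% ± 0.0751 in 3 WT libraries. Within set 1 the share was 1.05% and 0.930% in the 2 cKO libraries, against 0.996%, 1.00% and 1.11% in the 3 WT libraries. The share was higher in set 2 than in set 1 in both genotypes. The ratio of 40S to 60S counts was 0.842 ± 0.0275 in cKO and 0.855 ± 0.0129 in WT (SD, n = 6 each), and the groups overlap.

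**Figure D1:**
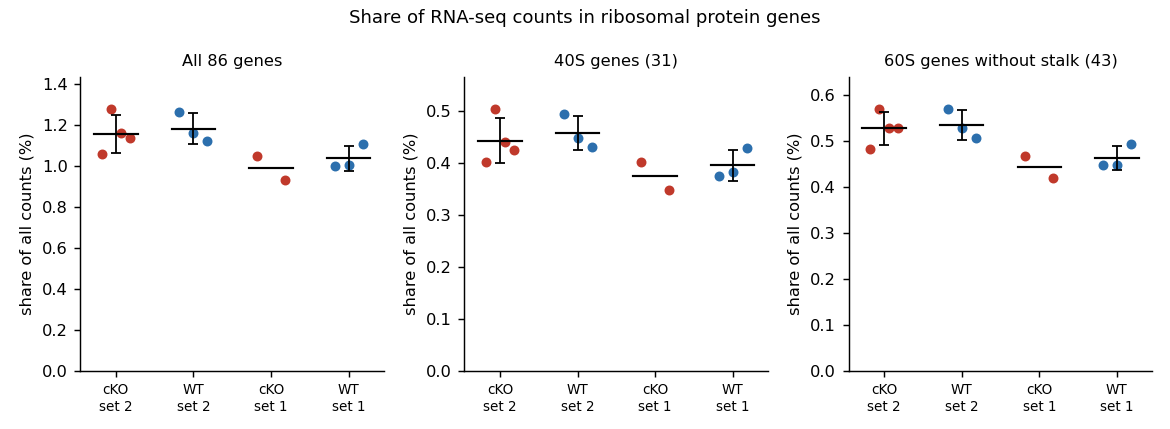
Share of all RNA-seq counts (%) taken by the 86 genes, by the 31 genes of the 40S subunit and by the 43 genes of the 60S subunit without the stalk, for cKO (red) and WT (blue) libraries in sets 2 and 1. Points are libraries, horizontal lines are means and error bars are SD where a group has 3 or more libraries. The cKO and WT points overlap within each set, and set 2 sits higher.

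No ribosomal protein gene changed with genotype at an adjusted p under 0.05, with the edgeR quasi-likelihood test and library set as a covariate. The test covered 13105 genes, of which 83 were members, and the share called was 0% over all genes. At an unadjusted p under 0.05, 2 members were lower in cKO and 0 were higher, against 3.28% of all genes lower and 2.86% higher. DESeq2 and limma-voom also called 0 members. Rpl10l and Rpl39l (genes mainly of the testis) and Rpl3l (mainly of heart and skeletal muscle) were not tested, with 0 to 6 counts in any library.

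Rps21, a small protein at the back of the 40S subunit, had the smallest p. It ran from 86.1 over a median of 87.8 to 101 CPM in cKO libraries, against 89.6, 98.8 and 114 CPM in WT libraries. The WT libraries were mostly above the cKO libraries, but the groups overlap. The fold change was -0.16 (log2, SE 0.0621, edgeR unadjusted p = 0.0204, adjusted p = 0.803). Rps14 sits on the 40S platform, and its reduced dose underlies the anaemia of the 5q deletion syndrome in human. It had 493, 558 and 636 CPM (lowest, median, highest) in cKO libraries, against 541, 607 and 656 CPM in WT libraries. The groups again overlap, with a fold change of -0.12 (SE 0.0526, edgeR unadjusted p = 0.0284, adjusted p = 0.803).

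Others among the 10 members with the smallest p for genotype were not called either. Rpl36al, a paralogue of Rpl36a, had -0.12, Rpl29 of the 60S subunit -0.12, and Rpl35, which lies at the exit of the peptide tunnel, -0.10 on the log2 scale. The stalk gene Rplp2 had -0.08. Rps3, at the entry of the mRNA into the 40S subunit, had -0.07, and Rpl34 had -0.10. Rpl18 was the exception with 0.13, and its sign turned in set 1 alone (-0.076). No member had all cKO libraries above or below all WT libraries, against 0.0382% and 0.0916% of all genes.

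The small differences leaned one way. In cKO 66 of 83 members had a log2 fold change below 0, against 50.4% of all genes, with a median of -0.05 against -0.000996 over all genes. Of the 47 members with a mean of at least 500 counts, 44 were below 0, against 47.7% of all genes at that depth. The size of this lean is less than the spread between libraries of 1 set. The median deviation of the members from their mean within the set was -0.14 to 0.14 (log2) in the 6 cKO libraries and -0.081 to 0.13 in the 6 WT libraries, which overlap. Without regard to set it was -0.25 to 0.22 in cKO and -0.13 to 0.22 in WT. Within set 2 alone 53 of 83 were below 0 (median -0.03), and within set 1 alone 71 of 83 (median -0.07). Without a term for set 52 of 83 were below 0 (median -0.02), and with single libraries left out 56 to 74. The members rise and fall together from library to library, so the count is not one of 83 independent genes. The 76 mitochondrial ribosomal protein genes, which serve the ribosome of the compartment where Mettl8 acts, had a median of -0.06. Of these 49 of 76 were below 0, against 50.4% of all genes, and 0 were called. With an edgeR unadjusted p under 0.05, 6 were lower and 0 higher, against 3.28% and 2.86% of all genes.

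The genotype difference did not differ between the library sets at an edgeR adjusted p under 0.05 for any member or any other gene tested. At an unadjusted p under 0.05 the interaction of genotype and set held 1 member, against 3.54% of all genes. This was Rpl21, a 60S protein with 15 pseudogenes by name in RefSeq (interaction 0.56, edgeR unadjusted p = 0.0459).

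**Figure D2:**
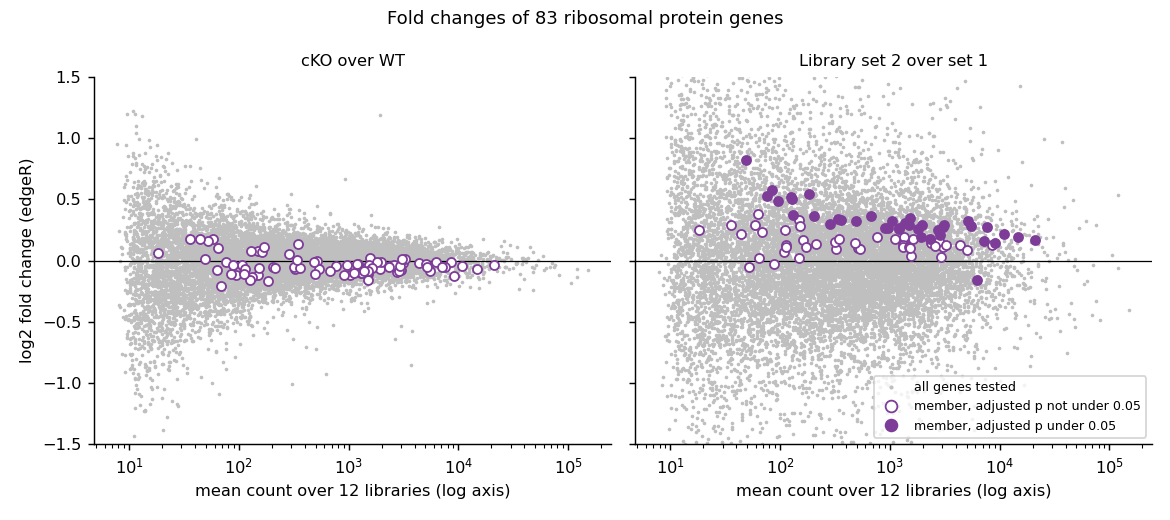
Log2 fold change against mean count over 12 libraries (log axis) for cKO over WT (left) and library set 2 over set 1 (right). Grey points are all 13105 genes tested, of which a few lie beyond the axis; purple circles are the 83 members, filled where the edgeR adjusted p is under 0.05. No circle is filled on the left, and 38 are filled above 0 and 1 below 0 on the right.

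The library sets separated the members far more than genotype did. Between sets 39 of 83 members passed the test, against 43.8% of all genes in either direction, so the number that moved is near the background. Their direction was one-sided: 38 were higher in set 2, against 21.5% of all genes, and 1 was lower, against 22.2%. The median log2 fold change of set 2 over set 1 was 0.19, against 0.00 over all genes, and 80 of 83 members were above 0, against 50.2% of all genes. Among members with at least 500 counts on average 25 of 47 were higher, against 26.1% of all genes at that depth. Without cKO replicate 2, the library with the smallest share, 23 members were higher. In cKO libraries alone and in WT libraries alone 11 were higher in each, with medians of 0.22 and 0.19 and 13.0% and 13.4% of all genes higher.

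Rpl6, a 60S protein, had the smallest p for the sets. It ran from 102 over a median of 109 to 114 CPM in the 7 libraries of set 2, against 84.8 and 81.0 CPM in the cKO libraries and 85.1, 79.7 and 93.0 CPM in the WT libraries of set 1. All of set 2 lay above all of set 1, with a fold change of 0.35 (SE 0.0587, edgeR adjusted p = 7.58e-05). Rpl13a is a 60S protein that is also known in human as part of a complex that silences inflammatory mRNAs. It had 337, 355 and 408 CPM (lowest, median, highest) in set 2, against 298, 269, 265, 296 and 328 CPM in set 1. The sets do not overlap, and the fold change was 0.33 (SE 0.0635, edgeR adjusted p = 0.000358). Rpl3, which reaches towards the peptidyl transferase centre, had 126, 135 and 146 CPM in set 2, against 106, 112, 112, 107 and 120 CPM in set 1. Here too the sets do not overlap (0.29, SE 0.0586, edgeR adjusted p = 0.000467).

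Others among the 10 members with the smallest p for the sets were also higher in set 2. The 40S genes Rps25, which some viral RNAs need to recruit ribosomes, and Rps3a had 0.31 and 0.29. The 60S gene Rpl32 had 0.28, and the paralogues Rpl36al and Rpl22l1 had 0.32 and 0.27. In 11 members all of set 2 lay above all of set 1, against 11.7% of all genes, and in 0 members below it, against 11.9%. By subunit 16 of 31 genes of the 40S, 19 of 43 of the 60S and 0 of the 3 stalk genes were called higher, against 21.5% of all genes. The 3 stalk genes are too few to set apart from that share.

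**Figure D3:**
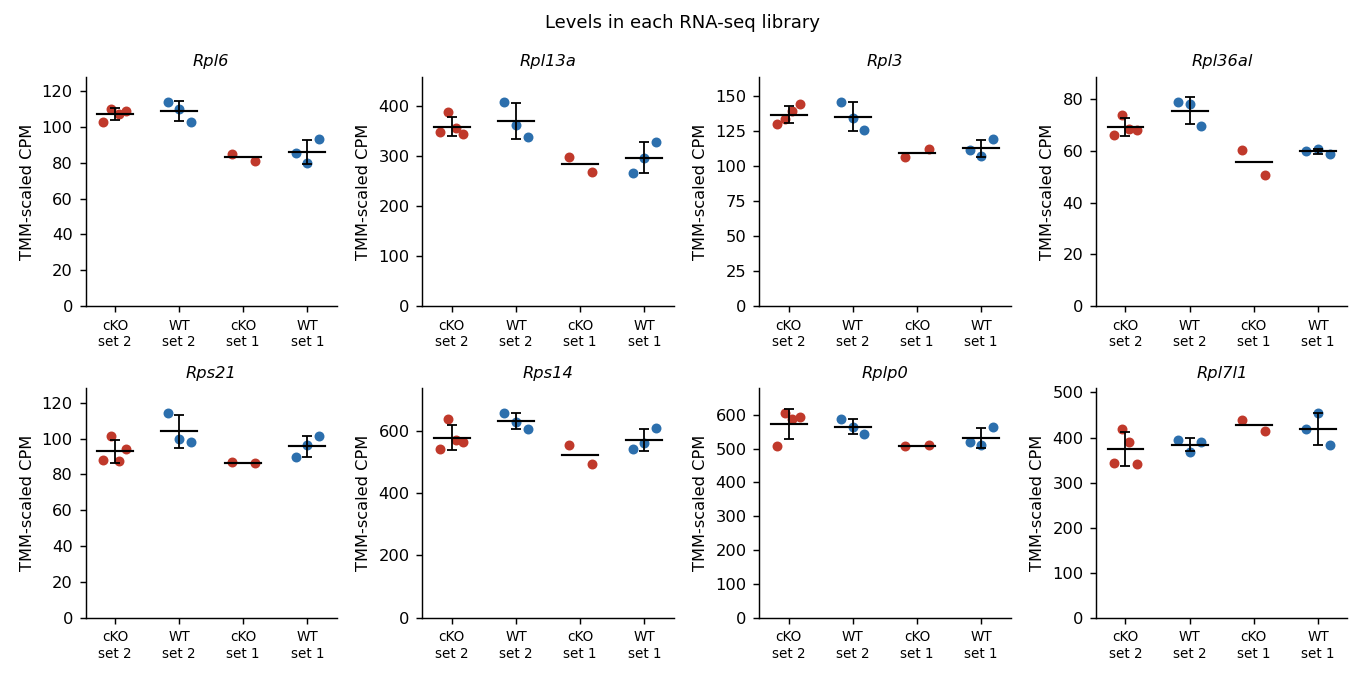
TMM-scaled CPM of 8 genes in each RNA-seq library, with cKO in red and WT in blue for sets 2 and 1. Points are libraries, horizontal lines are means, and error bars are SD for groups of 3 or more. Rpl6, Rpl13a, Rpl3 and Rpl36al stand higher in set 2 in both genotypes, while Rps21, Rps14 and Rplp0 overlap and Rpl7l1 is slightly lower in set 2.

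The stalk recruits the translation factors that hydrolyse GTP. Rplp0, its base, had 507, 587 and 605 CPM (lowest, median, highest) in set 2, against 508, 510, 520, 510 and 564 CPM in set 1, which overlap (0.13, SE 0.0532, edgeR adjusted p = 0.0613). Rplp1 and Rplp2, which form its flexible arms, had 0.03 and 0.10, and neither passed the test. Rpl12, which anchors the stalk, was called higher (0.52, SE 0.161, edgeR adjusted p = 0.0128). Rpl5 and Rpl11 join 5S rRNA in a particle that also binds Mdm2, the ligase that degrades p53. Rpl5 was called higher in set 2 (0.50, SE 0.151, edgeR adjusted p = 0.0111) and Rpl11 had 0.29 without passing. Rpl12, Rpl5 and Rpl11 have few counts, with medians of 135.5, 130 and 57.0 per library, and their sets overlap.

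Among members studied for roles of their own, Rpl10, which completes 60S maturation, was called higher in set 2 (0.55, SE 0.139, edgeR adjusted p = 0.00349). Rpsa, also named the laminin receptor (0.34), and the X-linked Rps4x (0.33) were called higher too. The sets overlap for Rpl10, Rpsa and Rps4x. Rps6, the substrate of S6 kinase, had 0.15, Rpl38, which mouse embryos need for Hox mRNA translation, 0.10, Rps19, mutated in Diamond-Blackfan anaemia in human, 0.13, and Rpl22 0.12. These last 4 did not pass. For genotype the members named in these 2 paragraphs had values between -0.17 (Rpl10) and 0.18 (Rpl11), with 0 called.

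The paralogues did not move as one. Rpl7l1 was the only member called lower in set 2: it ran from 341 over 390 to 419 CPM in set 2, against 440, 415, 420, 454 and 384 CPM in set 1. The sets overlap, and the fold change was -0.16 (SE 0.0603, edgeR adjusted p = 0.0398). Its call was lost when any of cKO replicates 1, 2, 3 and 6 or WT replicates 1, 2, 5 and 6 was left out, with adjusted p from 0.0150 to 0.125 over the 12 single removals. Rpl7, whose name it shares, had 0.13 without passing. Rps27l, a target of p53 in human, was called higher (0.16, SE 0.0638, edgeR adjusted p = 0.044). Rps4y2, which RefSeq lists as Rps4l, a transcribed pseudogene, had -0.05 and Rps19bp1 0.25, neither called.

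Rpl22 and Rpl22l1 are known to replace each other, and in mouse Rpl22 represses Rpl22l1. Rpl22l1 had 37.2 ± 2.87 reads per 100 Rpl22 reads in cKO and 36.7 ± 3.81 in WT libraries (SD, n = 6 each). The libraries ran from 33.1 to 40.2 in cKO and from 33.5 to 43.2 in WT, which overlap, and an exact permutation test over the 350 splits within sets gave a two-sided p = 0.88.

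Cell type markers moved with the library sets, as many genes did: 21.5% of all genes were called higher in set 2 and 22.2% lower. Of 7 astrocyte markers 6 were lower in set 2 (edgeR adjusted p under 0.05), with summed levels of 4378 to 6937 CPM in set 2 and 8517 to 10497 CPM in set 1. Of 7 oligodendrocyte lineage markers 5 were lower, with sums of 391 to 669 CPM in set 2 and 889 to 1144 CPM in set 1. Of 6 neuron markers tested 4 were higher, with sums of 152 to 297 CPM in set 2 and 94.9 to 121 CPM in set 1. Of 3 intermediate progenitor markers Eomes and Neurog2 reached at most 0.725 and 1.32 CPM and were not tested. The third, Btg2, made up nearly all of their sum of 211 to 314 CPM in set 2 and 467 to 549 CPM in set 1, and was lower in set 2. Of 7 progenitor markers 4 were higher and 3 lower, with sums of 8558 to 11749 CPM in set 2 and 7025 to 8374 CPM in set 1. Fabp7 made up most of this sum, with 1448003 counts over all 12 libraries, as Slc1a3 did of the astrocyte sum with 986177. Sums over the microglia, endothelium, mural, meningeal fibroblast and erythroid markers reached at most 10.9 CPM, with Tmem119, C1qa, Hba-a1 and Hba-a2 at 0 in every library. The part of these shifts in the member differences was not tested. None of these markers was called for genotype.

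Genes around the ribosome were read from the same fit. The shares called over all genes, 21.5% higher and 22.2% lower in set 2, apply to each list. Of 59 ribosome biogenesis factors tested 40 were higher in set 2 and 0 lower, with a median of 0.46. Gnl3, a nucleolar GTPase, had 187 ± 22.5 CPM in set 2 (n = 7) and 89.2 ± 6.46 CPM in set 1 (n = 5), a fold change of 1.05 (edgeR adjusted p = 5.6e-09). Nop56, of the box C/D snoRNA particle, had 343 ± 31.6 CPM in set 2 and 199.6 ± 7.42 CPM in set 1 (0.77, edgeR adjusted p = 1.69e-08). Of 20 translation factors and other genes with TOP mRNAs 13 were higher and 0 lower (median 0.20), among them Eif4a2 (0.36) and Npm1 (0.52). Of 29 other translation factors 14 were higher and 1 lower, and of 19 RNA polymerase I genes 10 were higher and 1 lower. Of 18 growth signalling genes 4 were higher and 5 lower, near the shares over all genes, led by Pdcd4, an inhibitor of Eif4a that mTORC1 signalling removes (-1.01), and Eif4ebp1, the 4E-binding protein (1.32). Of 10 genes around Mdm2 and p53 5 were higher and 0 lower.

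Of 3 genes tested whose proteins join the ribosome outside the naming rule, 1 was called: Gnb2l1, now Rack1, was higher in set 2 (0.28). Fau, made as a fusion with a ubiquitin-like protein, had -0.17 and was not called. The mitochondrial ribosomal proteins showed no common direction between sets: 9 of 76 were higher and 11 lower, with a median of -0.00. Mrps6 had 57.8 ± 4.84 CPM in set 2 and 37.4 ± 4.39 CPM in set 1 (0.64), and Mrps7 had 47.2 ± 2.80 CPM in set 2 and 61.6 ± 1.91 CPM in set 1 (-0.39). For genotype 0 genes of these lists were called.

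The set difference was also read by the letters at the starts, as a description and without Rps19bp1. Over all genes 21.5% were called higher in set 2. Of 37 tested members with a pyrimidine run in the window 15 were higher in set 2 (median 0.18), and of 24 without it 12 (median 0.19). Of 25 with CCGGAAG 10 were higher (median 0.16), and of 36 without it 17 (median 0.24). For genotype the medians were -0.05 with and -0.06 without the run.

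The spread of the members between libraries was close to that of other genes from 100 counts on average upwards. The residual SD of log2 CPM after genotype and set had a median of 0.119 for the 47 members with at least 500 counts on average, against 0.118 for all genes at that depth, and 0.210 against 0.207 for the 23 members from 100 to 500. Below 100 counts it was 0.274 for 13 members, against 0.446 for all genes.

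The number of reads per gene differed greatly within the ribosome, whose proteins mostly occur in single copies. Over the 77 genes of the 40S, the 60S and the stalk the median count per library ran from 19.5 (Rps27) to 21366 (Rpl4), 1096-fold apart. In HAC-seq, made from total RNA of cells of the same kind, the median coverage per listed C site outside hosted small RNAs ran from 130 to 1946 reads over the same genes, 15.0-fold apart. Counts and coverage scarcely followed each other, with a Spearman rank correlation of 0.18 across the 77 genes, which share libraries and are not replicates. Exonic lengths are not used here, so counts of different genes are given as read depth and not compared as levels.

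Many ribosomal protein genes have processed pseudogenes, near-identical intronless copies elsewhere in the genome. RefSeq names 318 of them for these 77 genes. The 15 genes with 0 pseudogenes by name had a median of 2875 counts per library, and the 12 genes with 10 or more had 240, while HAC-seq coverage was 326 and 299.5 reads. The rank correlation across genes was -0.39 between RNA-seq counts and the number of pseudogenes, and -0.10 for HAC-seq coverage. The 33 genes under 500 counts had a median HAC-seq coverage of 305 reads, against 341 for the other 44. How reads with several matching places were counted is not stated in the labels or files, so counts of members with copies are uncertain, and their part in this pattern was not tested. Low counts also occurred in genes with few pseudogenes by name: Rps27 has 2, and Rpl11 and Rps28, with 0, had medians of 57.0 and 70.0 counts. Copies under other names were not counted.

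On these unlike measures some paralogue pairs were in opposite order in the assays, and another pair was not. Rps27 had a median of 19.5 counts in RNA-seq and 299.5 reads of coverage in HAC-seq, and Rps27l had 7314.5 counts and 89.0 reads. Rpl7l1 had 6114.5 counts and 80.0 reads over 4 listed sites, and Rpl7 had 4506.5 counts and 379 reads over 103 listed sites. Rpl22l1 had 950.0 counts and 151.5 reads, and Rpl22 was above it in both, with 2709.5 counts and 211 reads.

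**Figure D4:**
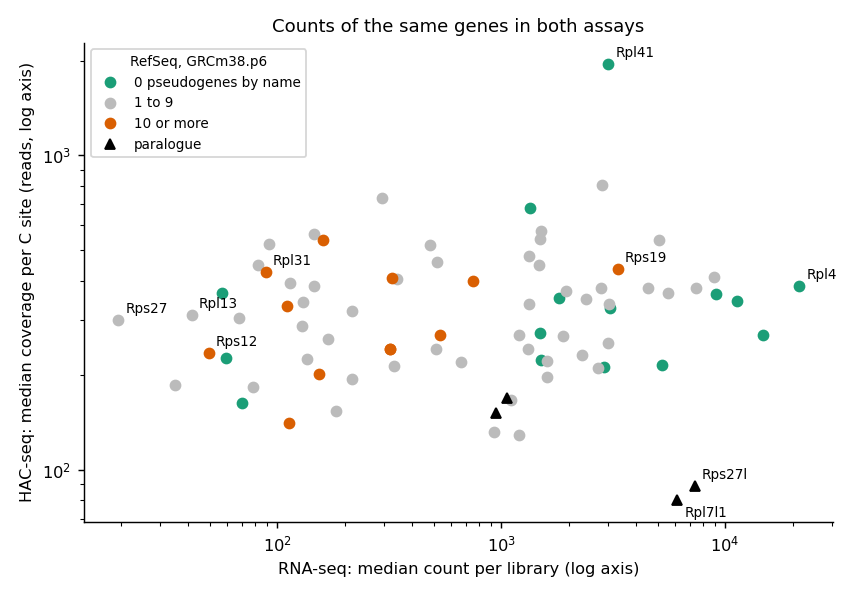
Median RNA-seq count per library against median HAC-seq coverage per listed C site outside hosted small RNAs, both on log axes, for 81 genes: green for 0 RefSeq pseudogenes by name, grey for 1 to 9, orange for 10 or more, and black triangles for paralogues. Rps27 and Rpl13 lie far left at 299.5 and 310.5 reads, Rpl4 lies at the far right at 384.5 reads, and Rps27l and Rpl7l1 lie lowest.

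HAC-seq was read for cytidines in transcripts of these genes. Hydrazine and aniline cut the chain at 3-methylcytidine, and cleavage is the share of reads that start 1 base downstream of a C. The table listed 5796 sites in 81 member genes. Of these 676 in 79 genes reached 50 reads in each library and a mean cleavage of 5%. Mean cleavage was 10.6%, 9.68% and 9.79% in the cKO libraries (10.04% ± 0.520, SD, n = 3), against 9.03%, 9.32%, 9.40% and 9.87% in the WT libraries (9.41% ± 0.349, SD, n = 4). The groups overlap. The difference was 0.632 points, beside 0.663 points over all 13240 sites tested. With single libraries left out it was 0.333 to 0.809 points, lowest without cKO replicate 1.

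No member site passed an adjusted p under 0.05 in the quasi-binomial model fitted across all sites with limma's squeezed dispersions, and over all sites 0.00755% passed. At an unadjusted p under 0.05, 28 member sites were higher in cKO and 4 lower, or 4.14% and 0.592%, against 6.62% and 2.02% of all sites. These counts moved with single libraries, to 49 and 10 without cKO replicate 2, to 17 and 8 without cKO replicate 1, and to 15 higher without WT replicate 1. Of the 21 genes with at least 10 sites outside small RNAs, 17 had a mean difference above 0, with a range of -0.95 to 1.78 points. The like share among other genes was not computed, and the mean difference over all sites tested was itself above 0, at 0.663 points. Over single sites the difference was above 0 at 440 of the 676 member sites, against 61.4% of all sites.

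The site with the largest fall lies in Rps7 at chr12:28633809 on the minus strand (GRCm38.p6). Its cleavage was 58.5%, 62.2% and 29.9% in the cKO libraries, against 71.3%, 63.0%, 73.5% and 60.6% in the WT libraries. cKO replicate 3 stands far below the rest, cKO replicate 1 lies just below the WT libraries, and cKO replicate 2 lies within their range. The difference was -16.9 points (unadjusted p = 0.0171 and adjusted p = 0.575 in the model across all sites, coverage 106 to 230 reads). The site with the smallest p lies in Rpl15 at chr14:18269160 on the minus strand. It had 8.75%, 5.84% and 7.63% in cKO, against 2.82%, 3.07%, 3.62% and 4.58% in WT, without overlap and with an adjusted p of 0.518. All WT values lie under the 5% minimum for the mean, so the site entered the test only through its cKO values. Its lack of overlap therefore carries no weight.

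Sites with high cleavage lay mostly in the small nucleolar RNAs that ribosomal protein genes carry in their introns. Of the 676 sites 18 (2.66%) were cleaved by over 50% on average, against 1.56% of all sites tested, a threshold chosen after the values were seen. Of these 13 fell in a small RNA annotated within the gene. Snord43 in Rpl3 had 98.8% ± 0.465 in cKO and 98.8% ± 0.634 in WT (SD, n = 3 cKO and n = 4 WT, as for the next sites). Snord15b in Rps3 had 95.01% ± 1.74 in cKO and 96.9% ± 1.46 in WT, and Snora62 in Rpsa had 93.9% ± 0.112 in cKO and 94.8% ± 0.902 in WT. The other 5 had no small RNA in the authors' annotation: 2 in Rpl4 and 1 each in Rpl5, Rps24 and Rps7. Rpl4 at chr9:64176659 (plus strand) had 99.6% ± 0.0363 in cKO and 99.3% ± 0.130 in WT. Apart from Rps7, the sites over 50% differed by less than 4 points between cKO and WT. A read that starts at the natural end of an RNA counts as cleaved in this ratio, and whether these sites are such ends was not tested.

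**Figure D5:**
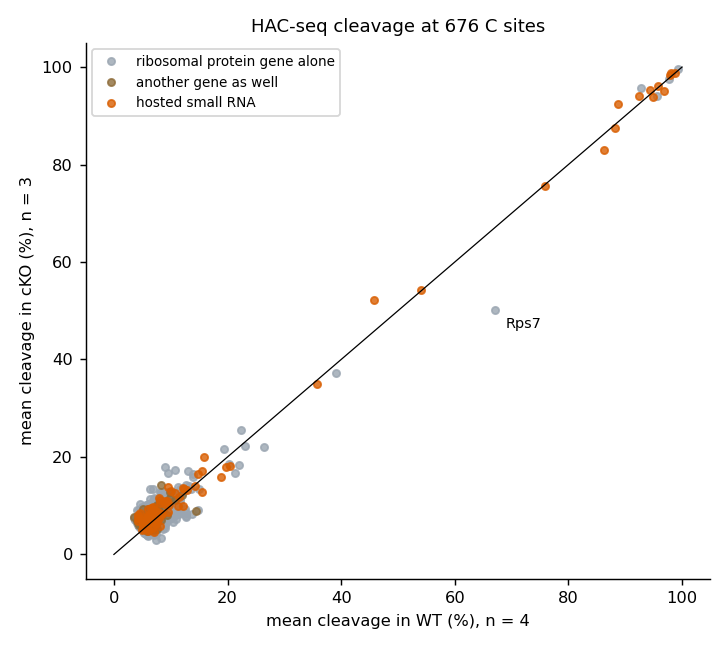
Mean HAC-seq cleavage (%) at the 676 tested C sites of ribosomal protein genes, with cKO (n = 3) on the vertical axis and WT (n = 4) on the horizontal axis, and the line of equal values. Sites in hosted small RNAs are orange, sites that lie in the member gene alone grey and sites that another gene shares brown. Points follow the line from 0 to 100%, and the Rps7 site lies furthest below it.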

How the data were processed

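Raw read counts per gene were deposited by the authors without normalization. The submitters' processing notes name bcl2fastq 2.17.1.14, Trimmomatic 0.32 and STAR 2.5.2a for both assays, and the builds GRCm38 (RNA-seq) and GRCm38.p6 (HAC-seq). How reads were assigned to genes is not stated. For HAC-seq, per the file headers, the authors list C sites with more than 1 read starting 1 base downstream in each WT library. The number of read starts at each site was deposited by the authors as an unscaled signal. The number of reads over the site was deposited by the authors as a second count. The cleavage ratio is a fraction, computed by the authors as starts over reads. Their deposited p-value per site was not used. All sample columns were used (0 left out). Of counts from 1 to 10, 17.4% were odd, against 50.1% from 101 to 1000, so counts divided by 2 served as an alternative.

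RNA-seq counts went into edgeR 4.0.16 (R 4.3.3), where 13105 genes passed filterByExpr with genotype as the group. After TMM scaling, quasi-likelihood F tests (two-sided) gave the effects of genotype, library set and their interaction, with Benjamini-Hochberg adjustment over all genes tested and a threshold of 0.05. Log2 fold changes are cKO over WT or set 2 over set 1, and their standard errors (SE) were derived from F. Log2 CPM used a prior count of 2. DESeq2 1.42.0 and limma 3.58.1 (voom) were alternatives. In HAC-seq, 135582 entries gave 118890 sites after repeats were removed. Those with 50 or more reads in all 7 libraries and a ratio of 5% or more on average entered a quasi-binomial fit per site, its dispersion squeezed by limma, and two-sided F tests. On simulated counts for genotype (12954 genes), 90.0% of genes lowered by 1 and 86.0% of genes raised by 1 on the log2 scale were recovered, and 46.8% and 48.0% at 0.5. On simulated read starts, 61.0% of sites changed by 30 points were recovered. Smaller changes were not simulated.

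The members, the gene lists and the rules were chosen with earlier results of these data known. Named members are the 10 with the smallest p for genotype and for set, the paralogues and members of fixed roles; other lists give up to 4 genes by p. Some genes that the rule names are not reported here. Rpl21, Rpl4, Rpl7, Rpl13, Rpl15, Rps7, Rps27, Rps28 and the sites over 50% were named after their values were seen. Leaving out cKO 4 and WT 5 together, and each genotype alone, were alternatives chosen after seeing the data. A ranking per length was planned and not made, since exonic lengths were not used. Sequences come from RefSeq (GRCm38.p6).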

Additional observations from a re-analysis of the deposited data

Results flagged for a closer look

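The level of Rpl11 in cKO replicate 4 stood apart from the other cKO libraries, at 6.63 CPM against 3.27 to 3.85 CPM in the other 5. The gap to the next library was 0.827 of the whole range. This was 1 of 79 groups of values examined for the named members, the shares and HAC-seq, and chance marks about 1 in 20 such groups. cKO replicate 4 also has the lowest total count and the highest share of ribosomal protein reads of all 12 libraries.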

How the results depend on the processing

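The 0 calls for genotype, interaction and HAC-seq sites in members stayed at 0 under every alternative run. Among single members, 3 set differences turned sign with a replicate block (Rps25 -0.086, Rps3a -0.11, Rpl32 -0.017), and the genotype difference of Rpl18 did so in set 1 alone (-0.076). With a replicate block 0 members were called higher and 0 lower in set 2, with a median of -0.073, because the sets differ within a number only for replicate 3. For genotype that block gave 45 of 83 members below 0 with a median of -0.0078, near the 50.4% of all genes without the block. It also left 0 members lower for genotype at an unadjusted p under 0.05, as did the fit without a set term and each set alone. Deviations of same-numbered libraries from the means of their genotype and set correlated at -0.05 to 0.17. Groups of 2 to 4 libraries are too small for these values to exclude pairing by replicate number. In cKO libraries alone and in WT libraries alone, chosen after seeing the data, 11 members were higher and 0 lower. Scaling by total counts gave 0 lower in set 2. The interaction held 0 members at an unadjusted p under 0.05 without a filter and in limma-voom. With a coverage minimum of 20, HAC-seq sites past an unadjusted p under 0.05 numbered 43 higher and 11 lower, and with a minimum of 100 they numbered 18 higher and 2 lower. Leaving out single libraries gave 0 to 3 members lower for genotype at an unadjusted p under 0.05, 23 to 42 higher and 0 to 1 lower in set 2, 0 to 1 for the interaction, and 15 to 49 HAC-seq sites higher and 4 to 10 lower. Medians under these removals were -0.08 to -0.02 for genotype and 0.17 to 0.23 for sets. Low counts limit members such as Rps27, and 3 against 4 libraries limits HAC-seq.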
